A study of Homo sapiens with 8 samples.

Results

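CELF2 depletion in unstimulated JSL1 cells was described from 1 of the 2 splicing tables that the authors deposited. The members are all 91480 local splicing variations (LSVs) of that table, out of 95692 listed in the series, and 91729 are listed in the table of PMA-treated cells. An LSV is a set of junctions that all leave 1 exon (a source LSV) or all enter 1 exon (a target LSV), and each junction carries the share of the set that it is estimated to take, its PSI. For each junction the share in control cells was subtracted from the share in depleted cells, and changes are given in percentage points of PSI. Counts of genes took 1 LSV per gene, the one with the largest change, at sizes of at least 20, 30 and 50 points.

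JSL1 cells are human T lymphocytes, a monoclonal line obtained from Jurkat, so every library stems from 1 clone. Control cells without stimulation were set against unstimulated cells in which CELF2 was depleted by short hairpin RNAs, integrated stably by lentivirus and induced with doxycycline. Each of these groups had 2 libraries of polyadenylated RNA, and the series holds 8 libraries in 4 groups. The other 4 libraries are control and depleted cells treated with the phorbol ester PMA, which switches on protein kinase C, at 20 ng/mL for 48 h. The sources used here do not say if the controls were given doxycycline or a control hairpin, or if libraries came from separate cultures. Depletion, the hairpin itself and doxycycline therefore cannot be told apart. The study's title gives the aim of finding functional targets of CELF2 in T cells.

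CELF2 is an RNA-binding protein of the CELF family that binds GU-rich elements and controls splicing in muscle, brain and lymphocytes. Depending on where it binds relative to an exon, such a protein can promote or repress the use of that exon. A cassette exon is included or skipped as a whole, a retained intron stays in the polyadenylated transcript, and alternative 3′ and 5′ sites shorten or lengthen an exon.

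The authors gave 1 share per group, with both libraries pooled, and no read counts. The spread between libraries and the depth behind an LSV are therefore unknown, and no test between groups was possible. The measure of error used here is the authors' own posterior probability that a junction changed by at least 20 points. An event is called supported where that probability is at least 0.95. Positions are on hg19. Unless another source is named, shares are those of the authors' deposited table, written as control followed by depleted cells.

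The sequences below show short cassette exons that rose or fell with support and whose length is a multiple of 3. Capitals mark the cassette exon, and the lower-case letters are 15 coding bases of each neighbouring exon. They are from GENCODE release 29 transcripts, matched by gene ID and by intron or exon length, since no genome of the tables' build was used. They were picked after their values were seen. In the exons of this first set inclusion was higher in depleted cells. GRIP1 encodes a scaffold of glutamate receptors (chr12:66770797-66770841, minus strand), NCAM1 a neural cell adhesion molecule (chr11:113092018-113092047, plus strand), and MAGI1 a scaffold of cell junctions (chr3:65433697-65433732, minus strand). DIAPH1 encodes a formin that nucleates actin filaments (chr5:140967791-140967817, minus strand), UGGT1 a glycosyltransferase that checks protein folding (chr2:128913966-128913989, plus strand), and APBB2 an adaptor of the amyloid precursor protein (chr4:40937094-40937156, minus strand).
GRIP1: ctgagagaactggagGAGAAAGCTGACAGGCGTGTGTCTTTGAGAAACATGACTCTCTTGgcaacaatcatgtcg
NCAM1: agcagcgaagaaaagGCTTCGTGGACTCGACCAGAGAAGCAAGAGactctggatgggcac
MAGI1: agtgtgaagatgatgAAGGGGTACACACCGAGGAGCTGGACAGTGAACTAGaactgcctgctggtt
DIAPH1: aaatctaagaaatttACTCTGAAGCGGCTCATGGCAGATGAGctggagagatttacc
UGGT1: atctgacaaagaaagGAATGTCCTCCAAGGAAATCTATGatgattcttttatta
APBB2: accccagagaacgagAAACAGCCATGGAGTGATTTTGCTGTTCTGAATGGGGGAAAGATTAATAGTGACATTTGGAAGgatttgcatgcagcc

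Inclusion was lower in depleted cells for the exons of the second set. GOLGA2 encodes a matrix protein of the Golgi (chr9:131029473-131029553, minus strand), MED12 a subunit of Mediator (chrX:70345513-70345563, plus strand), and MYO5A a myosin that carries vesicles (chr15:52630007-52630081, minus strand). SEZ6L2 encodes a membrane protein (chr16:29884026-29884064, minus strand) and OCRL an inositol polyphosphate phosphatase (chrX:128718321-128718344, plus strand).
GOLGA2: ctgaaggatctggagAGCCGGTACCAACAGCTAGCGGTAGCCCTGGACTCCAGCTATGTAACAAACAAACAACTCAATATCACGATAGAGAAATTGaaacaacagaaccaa
MED12: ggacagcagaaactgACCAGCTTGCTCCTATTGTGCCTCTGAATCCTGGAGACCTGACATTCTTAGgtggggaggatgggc
MYO5A: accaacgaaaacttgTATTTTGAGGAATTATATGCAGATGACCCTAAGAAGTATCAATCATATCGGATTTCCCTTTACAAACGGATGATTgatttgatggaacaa
SEZ6L2: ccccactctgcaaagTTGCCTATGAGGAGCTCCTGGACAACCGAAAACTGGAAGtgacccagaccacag
OCRL: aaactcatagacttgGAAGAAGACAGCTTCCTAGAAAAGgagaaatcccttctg

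The last set shows retained introns of at most 150 nucleotides, with the intron in capitals. Retention was higher in depleted cells for STIL, a centriole assembly factor (chr1:47765641-47765781, minus strand), and PSMC3IP, a cofactor of meiotic recombination (chr17:40729580-40729670, minus strand). It was lower for ZNF276, a zinc finger protein (chr16:89804314-89804383, plus strand).
STIL: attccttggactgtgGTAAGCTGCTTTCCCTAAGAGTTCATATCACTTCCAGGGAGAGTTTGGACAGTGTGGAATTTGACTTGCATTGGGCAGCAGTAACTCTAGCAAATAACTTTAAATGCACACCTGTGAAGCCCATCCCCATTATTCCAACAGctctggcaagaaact
PSMC3IP: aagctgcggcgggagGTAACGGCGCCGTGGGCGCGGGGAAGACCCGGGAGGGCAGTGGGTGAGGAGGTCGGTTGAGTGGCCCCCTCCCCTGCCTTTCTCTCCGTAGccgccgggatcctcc
ZNF276: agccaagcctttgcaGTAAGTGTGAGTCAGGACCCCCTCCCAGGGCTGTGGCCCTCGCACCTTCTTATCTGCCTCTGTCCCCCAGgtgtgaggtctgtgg

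In the GRIP1 exon inclusion was 3.0% in control and 46.8% in depleted cells, and in the NCAM1 exon 9.8% and 51.1%. MAGI1 had 36.6% and 82.7%, DIAPH1 37.6% and 84.0%, UGGT1 30.9% and 66.1%, and APBB2 15.2% and 67.1%. In control cells all 6 exons were skipped more often than included, and in depleted cells 5 of the 6 were included more often than skipped. Their choice as supported rises favours this pattern. Among the exons that fell, GOLGA2 had 58.1% in control and 17.9% in depleted cells, MED12 89.5% and 43.0%, MYO5A 68.7% and 34.4%, SEZ6L2 76.4% and 42.9%, and OCRL 47.5% and 20.1%. The STIL intron was retained at 51.4% in control and 89.8% in depleted cells, that of PSMC3IP at 37.7% and 78.3%, and that of ZNF276 at 40.7% and 10.9%. Each of these 14 events was supported.

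The targeted gene could not be checked by its RNA level, because the table holds junction shares and no expression values. CELF2 itself had 11 LSVs, of which 0 changed by 20 points. Its largest change was at the junction chr10:11299835-11312629, which stood at 9.7% in control and 2.5% in depleted cells, with a highest posterior in the gene of 1.38e-05. Of its paralogs, CELF1 had 19 LSVs, 2 of them past 20 points, the larger at 55.2% and 32.0% with a posterior of 0.881, short of support. CELF6 had 2 LSVs with a largest change of 9.1 points, CELF5 had 1 LSV at 97.2% and 96.6%, and CELF3 and CELF4 had 0. Cell type markers were also counted as genes with or without an LSV, for the pooled groups and not for single libraries. An LSV needs alternative junctions as well as expression, so these counts are no check of cell identity. Of 18 T cell identity genes 14 had an LSV, and of 34 genes of other lineages 2 did, NCAM1 and CD79A.

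Most splicing was little changed. The 91480 LSVs fell in 10965 genes, with a median of 7 LSVs per gene and a median change of 0.5 points per LSV. In 33384 LSVs (36.5%) every share sat at the floor or ceiling of the authors' estimate in both groups. The largest change per gene had a median of 8.1 points, and lay under 5 points in 3900 genes, from 5 to 10 in 2397 and from 10 to 20 in 2955. It reached 20 points in 1713 genes (15.6%), 30 points in 557 (5.08%) and 50 points in 68 (0.62%). Of the 2529 LSVs past 20 points 901 (35.6%) were supported, of 704 past 30 points 635 (90.2%), and of 79 past 50 points all 79. In all, 680 genes (6.2%) had a supported LSV. At the threshold itself, 11 genes had a largest change of 20.0 points, with posteriors from 0.332 to 0.756, and 24 genes one of 19.9 points, with posteriors from 0.227 to 0.749. Of the 1713 genes, 1152 had 1 changed LSV, 561 had 2 or more and 13 had 6 or more.

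**Figure D1:**
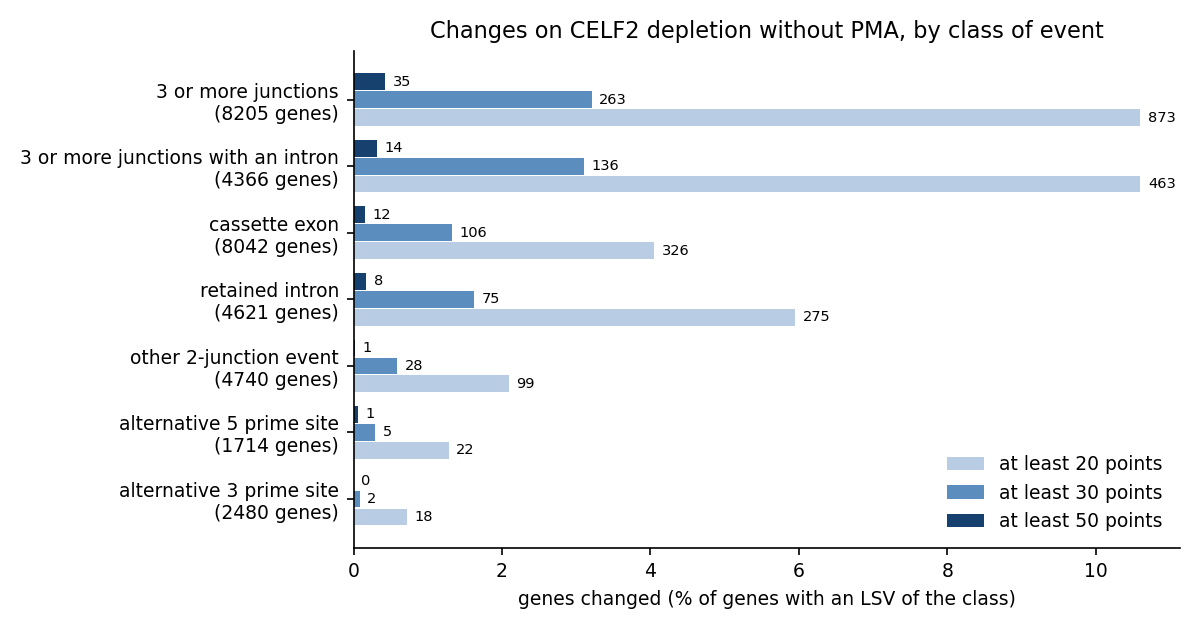
Genes changed in depleted cells without PMA, as a percentage of the genes with an LSV of each class (x axis), by class (y axis) and by size of change (bar colour), with the number of genes at each bar. LSVs of 3 or more junctions hold 873 of the changed genes at 20 points, and alternative 3′ sites 18.

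The plot of genes by class shows that the share of genes changed differed between classes. Past 20 points were 326 of 8042 genes with a cassette exon (4.05%), 275 of 4621 with a retained intron (5.95%), 18 of 2480 with alternative 3′ sites (0.726%) and 22 of 1714 with alternative 5′ sites (1.28%). LSVs of 3 or more junctions had 873 of 8205 genes (10.6%) and those that also held an intron 463 of 4366 (10.6%). In such LSVs more junctions enter the largest change, so these shares are not on the same footing as those of 2 junctions. Other events of 2 junctions, which include exon skipping together with an alternative site, had 99 of 4740 (2.09%). Past 30 points LSVs of 3 or more junctions held 263 genes (3.21%), or 136 with an intron (3.11%), cassette exons 106 (1.32%) and retained introns 75 (1.62%). Other events of 2 junctions held 28 (0.591%), alternative 5′ sites 5 (0.292%) and alternative 3′ sites 2 (0.0806%). Past 50 points these classes held, in the same order, 35 (0.427%), 14 (0.321%), 12 (0.149%), 8 (0.173%), 1 (0.0211%), 1 (0.0583%) and 0 genes (0.0%). A gene can count in several classes.

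Cassette exons moved in both directions in like numbers. The class was set from 2 junctions that reach different exons, so alternative first or last exons can enter it. Of its 326 changed genes 235 were matched to a middle exon of a transcript. Past 20 points inclusion was higher in 162 genes (2.01%) and lower in 164 (2.04%), or 49.7% higher, with an exact Clopper-Pearson 95% interval of 44.1% to 55.3% that covers counting error only. Past 30 points 58 genes were higher (0.721%) and 48 lower (0.597%), and past 50 points 10 were higher (0.124%) and 2 lower (0.0249%). The even split depended on the side from which an exon was read, with inclusion higher in 41.6% of changed genes from source LSVs alone and in 57.9% from target LSVs alone. In the 4019 exons read from both sides the changes had a Pearson r of 0.821 across exons, which share their skipping junction. Of 65 exons chosen by a source LSV past 20 points, 64 moved the same way in the target LSV, with a median of 25.5 points on the choosing side and 21.2 on the other.

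The largest change in the cassette class was a fall in ARHGEF11, an exchange factor for RhoA, at 96.3% in control and 2.9% in depleted cells. The largest rises were in the pseudogene ANKRD20A5P, at 7.9% and 85.8% with reads that its paralogs can share, and in the receptor phosphatase PTPRM, at 3.2% and 79.7%. The exons of ARHGEF11 and PTPRM, read from target LSVs, were not matched to a middle exon of a transcript, nor was that of KIF27 below. In matched transcripts the inclusion junctions of ARHGEF11 and PTPRM leave a first exon. For these 2 genes a change of first exon therefore cannot be told apart from skipping. Other supported rises were in KIF27, a kinesin-like protein, at 35.0% and 88.0%, in SCNN1D, a subunit of an epithelial sodium channel, at 42.5% and 88.8%, and in the zinc finger gene ZNF618, at 11.6% and 57.3%. Supported falls included IGF2BP2, an mRNA-binding protein, at 95% and 56.1%, SLC22A17, a lipocalin receptor, at 96.7% and 58.6%, and SCN3A, a sodium channel subunit, at 51.1% and 14.1%. TMEM241 fell from 48.0% to 7.4%, and ZKSCAN3, a zinc finger protein with its exon in the 5′ UTR, from 56.5% to 16.6%.

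The PMA table listed 6 of these 11 exons. With PMA ARHGEF11 stood at 94.2% in control and 4.8% in depleted cells, KIF27 at 20.1% and 74.4%, SLC22A17 at 97.5% and 83.2%, and TMEM241 at 34.0% and 25.7%, each in the same direction as without. SCN3A, at 21.7% and 30.9%, and ZKSCAN3, at 6.0% and 35.8%, had the opposite order there. Of the 6, ARHGEF11 and KIF27 were supported with PMA.

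**Figure D2:**
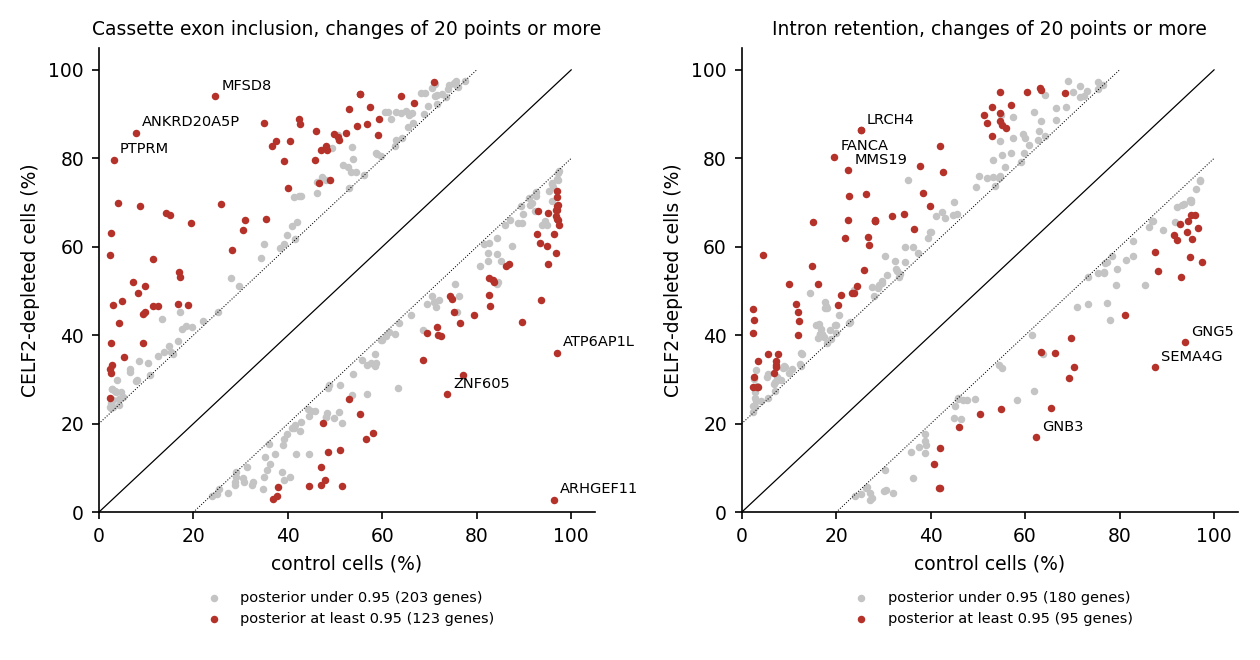
Cassette exon inclusion (left) and intron retention (right) in control cells (x axis, %) and depleted cells (y axis, %), 1 event per gene for changes of 20 points or more. Dotted lines mark 20 points. Points above the diagonal are higher in depleted cells, 162 of 326 genes on the left and 181 of 275 on the right.

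The plot of control against depleted levels shows that changed exons started from all levels, and that changed introns lay more often above the diagonal. Retention was higher in 181 genes (3.92%) and lower in 94 (2.03%) past 20 points, or 65.8% higher, with an exact Clopper-Pearson 95% interval of 59.9% to 71.4%. This interval, too, covers counting error only and not the spread between libraries. Past 30 points 50 genes were higher (1.08%) and 25 lower (0.541%), and past 50 points 6 were higher (0.13%) and 2 lower (0.0433%). Read as the mean of both sides, 45 of 67 genes were higher (67.2%). The introns that rose had a median retention of 27.7% in control cells, those that fell 72.2%. In depleted cells the medians were 56.7% and 39.7%. Both sets were chosen by their change, which favours a low start for rises and a high start for falls. Intron junctions inside LSVs of 3 or more junctions were higher in 163 genes and lower in 94 past 20 points (63.4% higher).

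The excess of higher retention was also present among small changes. Variable introns, with a share of at least 5% in 1 group and at most 95% in the other, numbered 5628, and 3330 were higher against 2269 lower (59.5%). Their median retention was 13.5% in control and 16.1% in depleted cells, and the median change 1.8 points. By size of change, 55.8% were higher under 5 points, 63.9% from 5 to 10, 61.9% from 10 to 20, 64.9% from 20 to 30 and 66.0% from 30 points. Among 6786 variable cassette exons 3377 were higher and 3384 lower (49.9% higher), with a median change of 0.0 points. Leaving out unchanged LSVs, introns of up to 150 nucleotides were higher in 2164 LSVs and lower in 1291 (62.6% higher), and longer ones higher in 1166 and lower in 978 (54.4%). Past 20 points the short introns were higher in 108 genes and lower in 45, and the longer ones higher in 77 and lower in 52.

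**Figure D3:**
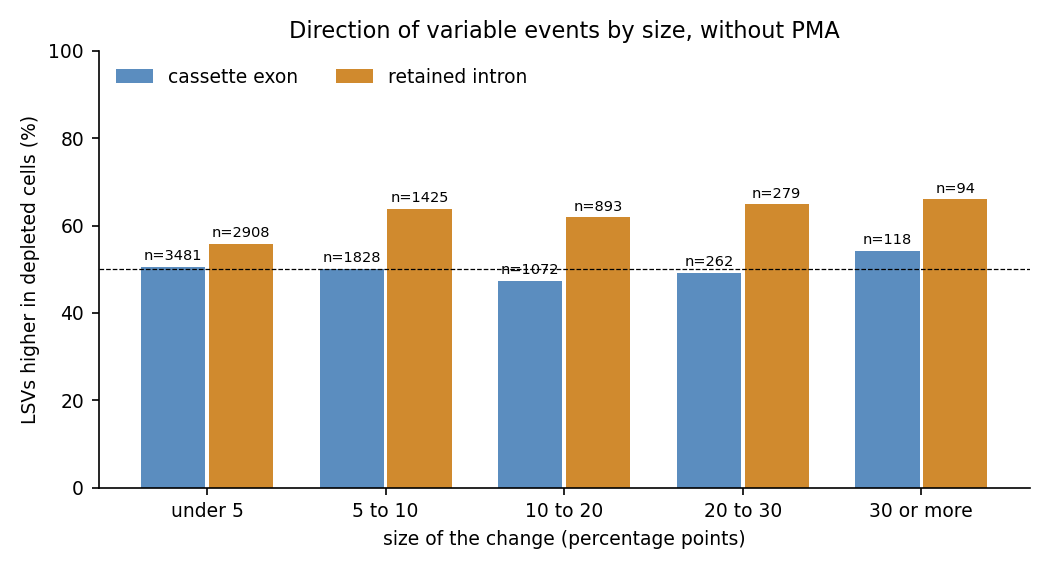
Percentage of variable LSVs that were higher in depleted cells without PMA (y axis) by size of change in points (x axis), for cassette exons and retained introns, with the number of LSVs above each bar. The dashed line is 50%. Introns lie above it in every band, from 55.8% to 66.0%, and cassette exons between 47.4% and 54.2%.

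The largest rise in a retained intron was at 84 nucleotides on chromosome 7 listed under both LRCH4 and SAP25, at 25.2% in control and 86.4% in depleted cells, so it is 1 event and not 2. FANCA, of the Fanconi anaemia core complex that repairs crosslinked DNA, had 19.6% and 80.4%, and MMS19, of the cytosolic iron-sulphur assembly machinery, 22.6% and 77.3%. FANCG, of the same core complex as FANCA, had 53.0% and 91.6%, and LIME1, a transmembrane adaptor of lymphocytes, 22.0% and 62.0%, both singled out after their values were seen. Retention also rose in the methionyl-tRNA synthetase MARS, at 26.4% and 71.9%, in XPO6, an exportin of actin, at 22.5% and 66.1%, and in SNX17, a sorting nexin, at 42.1% and 82.9%. COL27A1, a fibrillar collagen, had 4.5% and 58.1%, while with PMA it was listed at 3.2% and 4.5%. The LSV of RALGPS2, an exchange factor for Ral, rose from 2.5% to 45.9%, but its intron spans 51262 nucleotides.

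Falls in retention were led by GNG5, a G protein gamma subunit, at 93.9% and 38.5%, and SEMA4G, a semaphorin, at 87.4% and 32.9%. GNB3, a G protein beta subunit, had 62.3% and 17.0%, SERPINF1, a secreted serpin, 65.5% and 23.5%, and NPEPPS, an aminopeptidase, 93.1% and 53.2%. RPL23A, a protein of the large ribosomal subunit, had 70.4% and 32.8%, with reads that processed pseudogenes can share. GCHFR, a regulator of GTP cyclohydrolase I, had 94.9% and 57.6% and COL9A3, a chain of collagen IX, 42.0% and 5.5%. In control cells most of these introns were retained more often than removed, which their choice as large falls favours. With PMA retention was also lower in depleted cells for GNG5, at 52.9% and 17.4% with support, NPEPPS, at 85.8% and 61.5%, and GNB3, at 37.5% and 26.2%. SERPINF1, at 22.7% and 18.4%, and GCHFR, at 32.1% and 31.9%, differed little there. RPL23A had the opposite order, at 56.3% and 60.5%. The introns of SEMA4G and COL9A3 were not listed with PMA.

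Alternative splice sites gave few supported events. Among 3′ sites EML2, a microtubule-binding protein, had a junction at 17.2% in control and 52.8% in depleted cells, and LRP5L one at 36% and 7.8%. Among 5′ sites the noncoding LINC00471 had 30% and 82.6%, KIF2A, a kinesin that depolymerizes microtubules, 27.8% and 54.7%, and CTBS, a lysosomal chitobiase, 67.3% and 94.1%. UBASH3A, a suppressor of T cell receptor signalling, had 97.5% and 73.5%, at a posterior of 0.95. The exon-shortening site rose in 8 of 18 genes at 3′ sites and in 12 of 22 at 5′ sites past 20 points.

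Among LSVs of 3 or more junctions the largest rises were in RXRA, the retinoid X receptor alpha, with a junction at 8.3% in control and 96.5% in depleted cells, TENM1, a teneurin, with one at 2.5% and 88.0%, and ARHGEF3, with one at 13.7% and 93.8%. The largest fall was in OXR1, at 86.4% and 6.8%. Further supported events were smaller. RRAGB, a Rag GTPase of amino acid signalling to mTORC1, had a junction at 15.6% in control and 77.8% in depleted cells, and CAPG, an actin filament capping protein, one at 26.6% and 86.6%. In PKP4, a plakophilin, a junction rose from 2.5% to 63.8%, while with PMA it was listed at 2.5% and 7.2%. AKAP2, an anchoring protein of protein kinase A, had 43.7% and 95.9%. Junctions fell in USP44, a deubiquitinase, from 66.0% to 7.4%, in NFAT5, a transcription factor of the osmotic response, from 73.9% to 22.3%, and in TNFRSF14, a receptor of the TNF family, from 81.2% to 29.2%. HMGB1, a chromatin protein, fell from 84.2% to 25.5% and PRKAG1, a subunit of AMP-activated kinase, from 91.2% to 33.3%. Among other events of 2 junctions, the moved junction of GIT2, a GTPase-activating protein for ARF, stood at 50.3% and 80.7%, that of SREK1, a splicing regulator, at 34.0% and 63.6%, that of CPT1B, a carnitine palmitoyltransferase, at 42.8% and 10.4%, and that of HDAC10, a deacetylase, at 72.3% and 40.0%.

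What the changed exons shared was read from the matched transcripts. Of the 326 genes with a cassette exon past 20 points, 235 were matched, and in 154 of them (65.5%) the exon was coding. The exon length was a multiple of 3 in 62.3% of these coding exons (exact Clopper-Pearson 95% interval 54.2% to 70.0%, counting error only). The same share was 51.9% in variable exons under 20 points and 48.4% in all coding cassette exons. Among supported exons it was 57.6%. Median length was 111 nucleotides in changed exons and 114 in all. Exons matched to transcripts of the decay class, those annotated as targets of nonsense-mediated decay, numbered 485 of all 5392 matched exons (9.0%). They made up 8.1% of variable exons under 20 points, 7.2% of changed exons, 3 of 116 higher exons (2.6%) and 15 of 124 lower ones (12.1%), where a gene with exons in both directions counts in both. The GU-rich words TGTGT and TGTTT, searched on the transcript strand and counted together where either was present, occurred in 15.1% of 159 changed coding exons and in 21.0% of all 5352. They were in 18.8% of the higher and 11.4% of the lower exons, and the printed GRIP1 exon holds TGTGT. Introns and flanking sequence, where such elements also lie, were not searched.

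The junction that moved most in each gene was also placed in its transcript. It left the first exon in 35.2% of 1391 matched genes past 20 points, against 31.3% of 7566 under 20 points. Past 50 points it was 30.9% of 55. Target LSVs made up 52.3% of the genes past 20 points and 48.6% under, and LSVs of 3 or more junctions 65.7% and 56.1%.

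Genes were counted by 13 pathway lists, beside 15.6% of all genes past 20 points and 6.2% supported. All 13 lists were chosen with earlier results of these data known, so a high share in any of them is no independent evidence. Listed genes had a median of 9 to 15 LSVs each, against 7 over all genes, and the part of this in the counts was not tested. Actin, myosin and adhesion genes had 32 of 84 past 20 points (38.1%) and 24 supported (28.6%), with 13 LSVs per gene. The list of reported CELF and JSL1 targets, which was also drawn in part from earlier work in the same cells, had 10 of 27 (37.0%) and 8 supported. MAP kinase and NF-kappaB genes had 8 of 54 (14.8%) and metabolic genes 10 of 77 (13%), close to all genes.

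**Figure D4:**
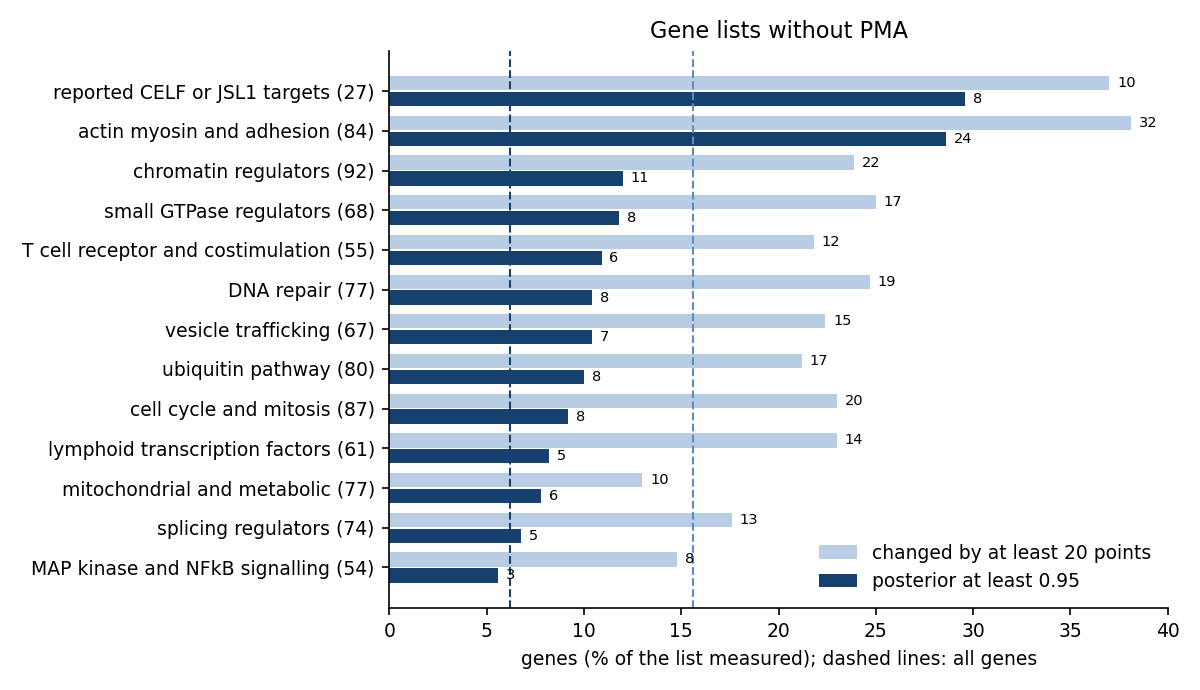
Share of each list's measured genes (y axis, number measured in parentheses) that changed by at least 20 points or had a supported LSV (x axis, %), with the number of genes at each bar. Dashed lines mark all genes, 15.6% and 6.2%. Actin, myosin and adhesion genes and reported targets have the longest bars. The lists were chosen with earlier results of these data known.

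Within the actin and adhesion list, supported changes were found in motor and filament genes. Among its cassette exons, inclusion rose in PPP1R12A and FMNL3 and fell in MYO5A, whose exon is printed above. In PPP1R12A, the targeting subunit of myosin phosphatase, inclusion of an exon of 177 nucleotides was 39.2% in control and 79.5% in depleted cells. FMNL3, a formin, had 46.0% and 86.1%. MYO18A, an unconventional myosin, had a junction at 38.6% and 77.2%, SPTBN1, a spectrin, one at 24.9% and 61.3%, and ABI1, of the WAVE complex, one at 8.9% and 37.9%. MACF1, a linker of actin and microtubules, had one at 89.2% and 44.3%, EPB41L2, a relative of protein 4.1, one at 95% and 56.5%, and EVL, an Ena/VASP protein, one at 55.4% and 22.0%. In the LSVs from MYO18A to EVL a rise at any junction goes with falls at others. The named junctions therefore give no direction for these genes.

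Small GTPase regulators had 17 of 68 genes past 20 points (25%) and 8 supported, led by ARHGEF11 and ARHGEF3. ARHGEF1 had a retained intron at 63.3% and 94.2%, and ARHGEF2 a junction at 96.1% and 70.3%, both exchange factors for RhoA. Vesicle trafficking had 15 of 67 (22.4%) and 7 supported, among them the dynamin DNM1L, with a junction at 68.0% and 36.5%, and KIF23, a kinesin of cytokinesis, with one at 52.0% and 81.0%. T cell receptor and costimulation genes had 12 of 55 (21.8%) and 6 supported. The largest changes there were in the lipid kinase PIK3CD, with a junction at 9.8% and 74.3%, and the tyrosine kinase FYN, with one at 24.0% and 80.6%. DGKA, a diacylglycerol kinase, had a junction at 97.5% and 65.8%, and PPP3CC, a calcineurin subunit, one at 81.1% and 53.6%.

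Chromatin regulators had 22 of 92 genes past 20 points (23.9%) and 11 supported. The histone demethylase KDM1A had a retained intron at 27% and 60.4%, CHD3 of NuRD a junction at 58.3% and 27.7%, and the DNA methyltransferase DNMT3A a retained intron at 19.4% and 46.0%. DNA repair genes had 19 of 77 (24.7%) and 8 supported, including POLI, a translesion polymerase, with a junction at 59.3% and 94.6%. Lymphoid transcription factors had 14 of 61 (23.0%) and 5 supported. NFKB2 had a retained intron at 9.4% and 46.1%, and GABPA one at 53.0% and 85.0%, but the GABPA intron spans 6502 nucleotides.

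Splicing regulators had 13 of 74 genes past 20 points (17.6%), 5 supported and 1 past 30 points. SRPK2, a kinase of SR proteins, had a junction at 41.3% and 70.2%, TIA1 one at 52.3% and 24.3%, and SRSF10 one at 8.1% and 33.5%. Cell cycle genes had 20 of 87 (23.0%) and 8 supported, with a junction of CEP170, a centrosomal protein, at 50.9% and 80.9% and one of the checkpoint kinase ATM at 62.9% and 92.6%. The ubiquitin pathway had 17 of 80 (21.2%) and 8 supported, with a retained intron of FBXW7, a substrate receptor of a ubiquitin ligase, at 34.3% and 67.4%. Of the T cell identity genes 3 of 14 were past 20 points and 1 was supported, TRBC2, a constant region of the T cell receptor beta chain, with a junction at 37.5% and 77.0%, where reads shared with its near copy leave the value uncertain.

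The table of PMA-treated cells holds other libraries, so it was used to look at the same junctions. There, 2383 of 11039 genes were past 20 points (21.6%), 879 past 30 (7.96%) and 127 past 50 (1.15%), and 1165 had a supported LSV (10.6%). Of the 680 genes with support without PMA, 580 had the same junction listed with PMA, and in 485 of these (83.6%) it moved in the same direction. The median change was 33.6 points without PMA, where it had been used to choose the events, and 18.0 points in that direction with PMA. In 256 genes (44.1%) it was at least 20 points in the same direction, in 11 at least 20 points in the opposite one, and in 176 it was supported with PMA. By class, 65 of 81 cassette exons and 57 of 68 retained introns moved the same way.

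**Figure D5:**
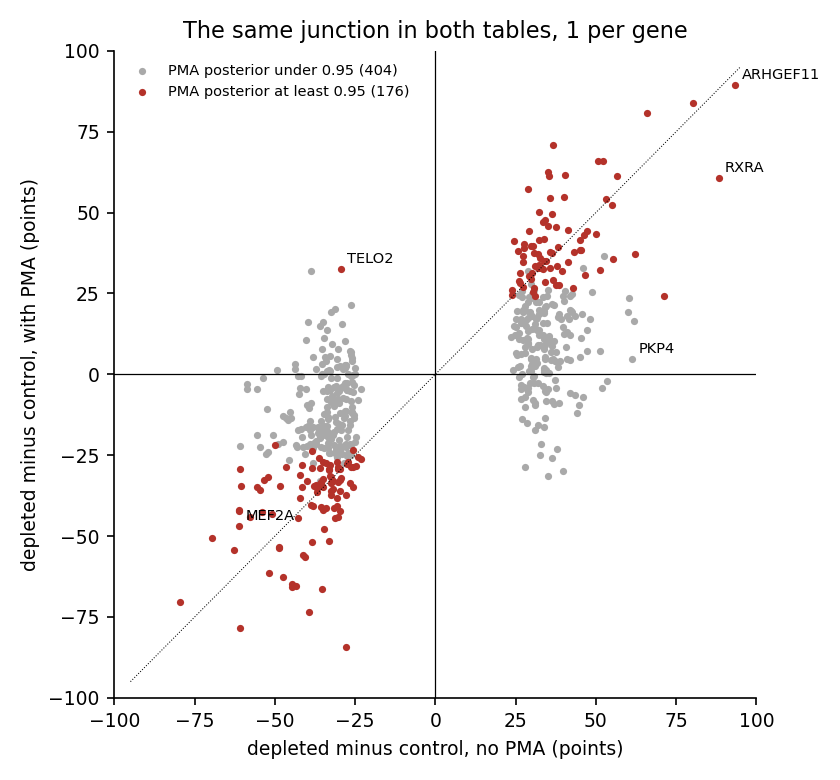
Change of the same junction without PMA (x axis, points) and with PMA (y axis, points), depleted minus control, 1 junction per gene for the 580 genes with support without PMA. Of these 485 lie in the quadrants of like sign, and red points, 176, are supported in both tables.

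In the plot of the same junctions the changes without PMA are those by which the junctions were chosen, so a smaller median with PMA is no measure of a weaker effect. Across these 580 junctions, which share a table in each state, Pearson's r was 0.731. Intron retention leaned the same way with PMA, where 59.1% of variable introns were higher, but cassette exons did not, with 39.2% higher and a median change of -2.7 points. Past 20 points, 504 genes changed in a cassette exon with PMA (6.25%), 197 higher (2.44%) and 307 lower (3.81%), and 410 in a retained intron (8.79%), 245 higher (5.26%) and 165 lower (3.54%). The other classes with PMA had 34 genes at alternative 3′ sites (1.36%), 26 at 5′ sites (1.52%), 151 at other events of 2 junctions (3.18%), 1166 at LSVs of 3 or more junctions (14.1%) and 752 at those with an intron (17.1%). With PMA the intron junction within LSVs of 3 or more junctions was higher in 48.3% of 412 changed genes. Whether the 2 states differ was not tested for any event, since each table gives 1 value per group.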

How the data were processed

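Polyadenylated RNA was sequenced from stranded TruSeq libraries, per the labels' protocols. STAR 2.5.1b and hg19 are named in the submitters' processing notes. The file headers carry the column names that VOILA writes for MAJIQ results. The MAJIQ version, the annotation and any read filters: not given in the sources used here. Per the file headers, the authors deposited for each junction the expected share (PSI, 0 to 1) in each group, the expected change and a posterior probability that the change reaches 0.2, with both libraries of a group pooled. Depth is not given.

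Here shares were subtracted (depleted minus control), and each LSV was classed from its coordinates with Python 3.11.15, pandas 2.3.3 and numpy 2.4.6. Intervals are from scipy 1.17.1. The classification was tested on simulated LSVs, which held no alternative first or last exons and so could not show how these were classed. Exon lengths, frame and sequences came from GENCODE release 29 by gene ID and intron lengths, with no coordinates carried over. LSVs under overlapping gene IDs (1127) were kept. The 4 libraries were grouped by title. Genes were named from among those with the 15 largest supported changes per class and direction and the supported genes of each list, with others marked in the text. Events and lists were chosen with earlier results of these data known. Alternatives were the authors' shrunken change, a posterior rule, other choices of LSV per gene, no de novo LSVs and either side alone. Some results are not reported here. The number of per-sample columns left aside was 0.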

Additional observations from a re-analysis of the deposited data

Results flagged for a closer look

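An intron of TELO2, a partner of kinases of the PIKK family, moved in opposite directions in the 2 states with support in both. At the intron junction at positions 1556484 to 1556485 of chromosome 16, retention went from 52.1% in control to 22.6% in depleted cells without PMA, a change of -29.5 points, and from 13.3% to 45.8% with PMA, a change of 32.5 points. Posteriors were 0.965 and 0.994 in the authors' deposited tables. The difference between the states was not tested, because each table gives 1 pooled value per group. Of 252 LSVs in 187 genes with support in both tables, this was the 1 LSV whose direction differed.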

How the results depend on the processing

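Of the alternatives, 44 values stayed near the reported one and 17 moved. The cause of each shift was not tested unless the alternative itself removes LSVs. Genes past 20 points numbered 680 with a posterior of at least 0.95 required, 465 with the LSV of lowest position in each gene, 670 without LSVs holding a de novo junction and 1046 from source LSVs alone, against 1713. Past 30 points the count of 557 became 142 with the lowest position, 211 without de novo LSVs, 301 from source and 359 from target LSVs alone. Past 50 points the count of 68 became 14, 21 and 29 with the lowest position, without de novo LSVs and from source LSVs. The de novo choice removes 66.9% of the LSVs. Cassette inclusion was higher in 41.6% of changed genes from source and 57.9% from target LSVs, against 49.7%. The even splits crossed 50% under some alternatives: cassette inclusion was higher in 54.5% of genes with the posterior required, and at alternative 3′ sites 53.3% moved to the shortening site without de novo LSVs, against 44.4%, so neither class has a settled direction. At alternative 5′ sites 78.6% moved to the shortening site without de novo LSVs, against 54.5%. The share of supported genes with the same direction under PMA was 89.2% at a posterior of 0.99, 86.5% over all LSVs and 88.2% with the lowest position, against 83.6%. The share of genes with higher intron retention lay between 61.1% and 69.2% under its alternatives.

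The alternative without de novo LSVs gave no value for retained introns, because all 27217 LSVs with an intron carry that flag. Counting overlapping gene IDs once and averaging both sides were chosen after seeing the data. No paired analysis was possible because the authors pooled both libraries of each group into 1 value, and for the same reason no library was left out. Depth is unknown.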
